A study of Rattus norvegicus with 12 samples.

Results

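The comparison described here is the effect of performing an attention task on gene expression in the medial prefrontal cortex of young adult rats. It uses 6 of the 12 RNA sequencing libraries of a study with 2 ages and 2 task groups, all from Wistar rats. The 3 performing libraries (P1, P2 and P3, titled VP-2, U6 and U8) come from rats aged 3 months that had been trained and tested for attention in an operant task, in which an animal works an apparatus for an outcome. The 3 nonperforming libraries (N1, N2 and N3, titled VP-1, U7 and U9) come from rats of the same age that had the same contextual experience without cognitive engagement. Both groups therefore share strain, age and setting, and differ in the task. The remaining 6 libraries come from rats aged 22 months, 3 performing and 3 nonperforming. They serve here for the choice of genes to compare, the estimate of spread and a comparison of the task effect between ages. The labels do not say that libraries came from separate animals, so p-values measure only the spread between libraries, which may be technical. Of 15939 genes in the deposited table, the 13496 with a normalized count of at least 10 in at least 3 of the 12 libraries were compared. A normalized count is the number of reads of a gene divided by the size factor of its library. Differences are performing minus nonperforming on the scale log2(normalized count + 1), with the standard error (SE) of the limma fit, and a gene was to pass at an adjusted p under 0.05.

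The medial prefrontal cortex serves sustained attention in rodents, and acetylcholine released there from basal forebrain axons acts on muscarinic and nicotinic receptors to raise the response to cues. Neurons that fire strongly switch on immediate early genes within minutes, partly through the transcription factor CREB, which binds a short DNA motif called the cAMP response element. Arc, Fos and Npas4 are members used as a record of recent activity, and changes in receptors, channels, myelin and energy metabolism are slower accompaniments of learning.

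Libraries of the same task group differed from each other. Recovered reads per library ran from 22632924 in P2 to 42205582 in P3. N3 stood apart from the other young libraries, with a median rank correlation of 0.935 with them (the others had 0.975 to 0.988). Its correlation was 0.975 with P3, as was that of N1 with P3, and 0.930 to 0.944 with P1, P2, N1 and N2. N3 was outside the range of the other 5 libraries in 9587 of 13496 genes, the highest of 6 in 4883 and the lowest in 4704. Ttr, the transthyretin gene that defines choroid plexus epithelium, stood at 37.4, 20.1 and 57.3 in P1, P2 and P3 and at 17.3, 7.50 and 37304 in N1, N2 and N3. The 17 choroid plexus markers in the table summed to 39077 in N3, to 342 and 224 in N1 and N2, and to between 272 and 636 in the performing libraries. None of its defining markers Ttr, Folr1 and Kl was at 0 in any of the 6 libraries. Mitochondrially encoded genes took 10.8% of the reads of N3, 18.8% and 19.5% of N1 and N2, and 20.2%, 23.5% and 19.4% of P1, P2 and P3. P2 carried olfactory bulb transcripts, with Cdhr1, a cadherin of bulb projection neurons, at 297, 6016 and 855 in P1, P2 and P3 and 372, 317 and 403 in N1, N2 and N3. The 19 bulb markers in the table summed to 26501 in P2, 7171 and 11077 in P1 and P3, and 6715 to 7524 in the nonperforming libraries. P3 carried more transcripts of striatal projection neurons, with the adenosine receptor gene Adora2a at 599 in P3 and 122 to 239 in the other 5 libraries. In bulk tissue, fewer cells of a type and less RNA per cell cannot be told apart. Because N3 departs from all others, list medians below are given with all libraries and without N3, as are many differences of single genes, and counts are given within the titles that share the prefix VP (N1 and P1) or U where a list turns on it. The labels do not say what the prefix stands for.

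No gene passed the test between performing and nonperforming rats at 3 months. With limma 0 of 13496 genes passed (0% of the genes tested, smallest adjusted p = 0.997), and 106 genes were higher and 57 lower in performing rats at an unadjusted p under 0.05 (0.785% and 0.422% of genes tested). The quasi-likelihood test of edgeR and DESeq2 on the recovered reads also gave 0 genes, with smallest adjusted p of 0.996 and 0.0643, and 216 and 262 genes at an unadjusted p under 0.05. The 3 performing values lay above the 3 nonperforming values in 397 genes and below them in 252 (2.94% and 1.87% of genes tested). The median difference over all genes was -0.0035 and the median SE was 0.24. Left without N3, limma again passed 0 genes (0%, smallest adjusted p = 0.437), with 486 genes higher and 841 lower at an unadjusted p under 0.05 (3.6% and 6.23%). The groups of 3 and 2 then did not overlap in 2105 genes with performing higher and 2130 with performing lower (15.6% and 15.8%). The sign of the difference changed for 5619 of the 13496 genes when N3 was left out. Weighting libraries by their fitted quality, which gave N3 a weight of 0.0615 and N2 a weight of 5.69, was the 1 alternative in which genes passed, 38 higher and 106 lower in performing rats.

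The genes with the smallest p are described by their values, since none passed. Among genes with a mean of at least 50, Ap1s3 (ENSRNOG00000049873), a subunit of the clathrin adaptor that sorts cargo at the trans-Golgi network, came first of those higher in performing rats. Its normalized counts were 109, 87.5 and 91.0 in P1, P2 and P3 and 55.8, 39.6 and 25.3 in N1, N2 and N3. The groups did not overlap, and the difference was 1.30 ± 0.32 (SE, adjusted p = 0.997). Without N3 the difference of Ap1s3 was 1.01 ± 0.29 (adjusted p = 0.437). Anln, an actin-binding protein of dividing cells that oligodendrocytes also make, stood at 312, 359.6 and 264 in the performing and 172, 150 and 159.8 in the nonperforming libraries, a difference of 0.94 ± 0.31. Every performing library lay above every nonperforming one, and P2 was the highest. Mycn, a growth-promoting transcription factor, stood at 153, 174 and 189.7 against 103, 123 and 73.7, a difference of 0.80 ± 0.27. N3 was the lowest of the 6 for Mycn, and 0.60 was the difference without it. Sult1d1, a sulfotransferase that acts on catecholamines, stood at 579, 713 and 694 against 367, 396 and 614. Here P1 lay just below N3, so the groups overlapped, and leaving out N3 moved the difference from 0.56 ± 0.19 to 0.79 ± 0.13. Cbx2, a Polycomb reader of histone methylation, stood at 76.9, 92.3 and 67.5 against 53.9, 47.1 and 27.6, with no overlap. The zinc finger gene Zfp111 (334, 349 and 296 against 270.4, 241 and 159.8) and RGD1359508 (129, 153 and 119 against 81.8, 76.1 and 107) also did not overlap. Vash2, a vasohibin that removes the terminal tyrosine of tubulin, stood at 94.6, 232 and 98.7 against 69.3, 48.2 and 51.5, and P2, the library with bulb transcripts, held the highest value.

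S100a5 and Ms4a15, also among the 10, were near or at 0 in every nonperforming library. S100a5, an EF-hand calcium-binding protein, was at 28.6, 395 and 14 in P1, P2 and P3, at 0 in N1 and N2 and at 0.768, which is a single read, in N3. Ms4a15, a membrane protein of the MS4A family, was at 2.96, 300.4 and 22.3 in the performing libraries and at 0 in all 3 nonperforming ones. A fold over values at or under 3 reads is not given, and 3 reads correspond to 2.89, 3.21 and 2.30 normalized counts in N1, N2 and N3. The highest value of both was in P2, where the bulb markers were highest, and at 2.96 the value of Ms4a15 in P1 is itself 3 reads. Whether bulb tissue accounts for these counts was not tested.

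Of the genes lower in performing rats, Grin2b (ENSRNOG00000008766), the GluN2B subunit that gives NMDA receptors slow kinetics, came first. It stood at 326, 339 and 474 in P1, P2 and P3 and at 573, 708 and 642 in N1, N2 and N3. All 3 performing values were below all 3 nonperforming ones, and the difference was -0.77 ± 0.19 with all libraries (adjusted p = 0.997) and -0.76 ± 0.21 without N3 (adjusted p = 0.437). Clpb, a mitochondrial chaperone that pulls apart protein aggregates, stood at 907, 873 and 844 against 1077, 1189 and 1237, a difference of -0.42 ± 0.12. The spread within each group was small for Clpb, at 874 ± 31.3 and 1168 ± 82.3 (SD, n = 3). Hebp1, a heme-binding protein, stood at 717, 563 and 723 against 857, 952 and 960. Crym, a cytosolic protein that holds thyroid hormone, stood at 4823, 3309 and 5326 against 5878, 7030.3 and 9819, with N3 the highest. The difference of Crym was -0.75 ± 0.25 with all libraries and -0.55 ± 0.24 without N3. Gstm4, a glutathione transferase, overlapped in P3 and N1, at 759, 627 and 990.4 against 972, 1339 and 2139. Acot4, a peroxisomal thioesterase that frees acids from coenzyme A, stood at 117, 102 and 104 against 194, 206 and 124. N3 lay closest to the performing libraries for Acot4, whose difference was -0.66 ± 0.23 with N3 and -0.89 ± 0.19 without it. The last of the 10, Ttc22 (-0.47), Fam126b (-0.44), the tRNA-modifying enzyme Lcmt2 (-0.70) and the sulfotransferase Chst8 (-0.61), had no overlap either.

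**Figure D1:**
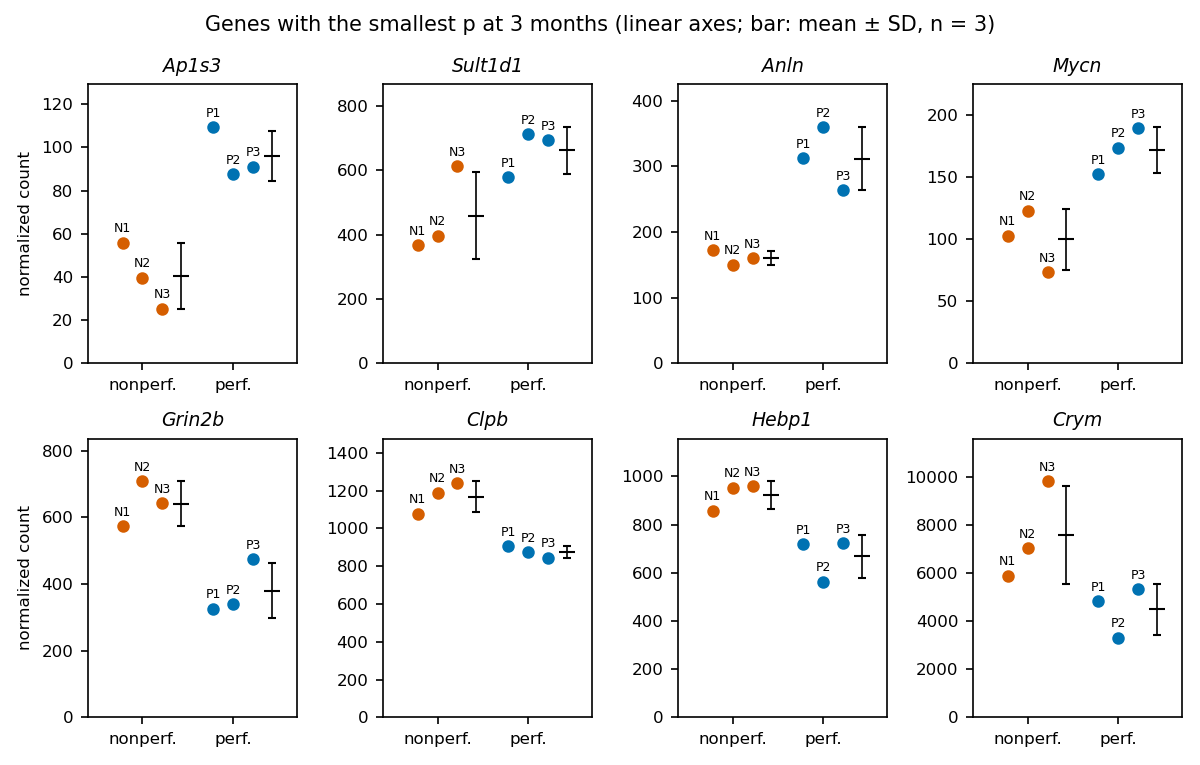
Normalized counts (y axis, linear from 0) of 8 of the genes with the smallest p in each of the 6 libraries of 3 months; points are libraries, bars the mean ± SD of 3 libraries. The groups overlap for Sult1d1, where P1 lies below N3, and for none of the other 7 genes, and no gene passed the test.

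Leaving out N3 brought other genes to the front. Sik1 (ENSRNOG00000001189), a salt-inducible kinase whose gene CREB switches on, stood at 320.2, 388 and 382 in the performing libraries and at 166 and 142 in N1 and N2, while N3 was at 379 among the performing values. Its difference was 1.23 ± 0.20 without N3 and 0.80 ± 0.32 with it. Plekhf1, an endosomal protein with a lipid-binding FYVE domain, stood at 194, 179 and 192 against 98.2 and 80.4 in N1 and N2 and 252 in N3. For Plekhf1 N3 was the highest of all, and the difference was 1.07 ± 0.23 without and 0.58 ± 0.37 with it. The largest such difference among the higher genes was that of Arc, described with the immediate early genes. Rnd2, a small GTPase that steers neuron migration, stood at 4950.5, 5761 and 6076 against 4046 and 3852, with N3 at 12188. Atp5e, the epsilon subunit of ATP synthase, stood at 4661, 4963 and 5434 against 3648 and 3584, with N3 at 13393, and the ribosomal protein genes Rps24 and Rpl21 had differences of 0.49 and 0.41 without N3, beside 0.50 for Rnd2 and 0.47 for Atp5e. With N3 in, the differences of Rnd2, Atp5e, Rps24 and Rpl21 were -0.04, -0.16, -0.10 and -0.07.

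Of the 10 genes with the smallest p in the other direction without N3, 3 encode subunits of ion channels (Nalcn, Cacna1e and Cacna2d1). Nalcn, the sodium leak channel that sets resting potential, stood at 1259, 1393 and 1329.7 in the performing libraries and 1984 and 2044 in N1 and N2, with N3 at 661. The difference was -0.60 ± 0.11 without N3 and -0.07 ± 0.34 with it. Cacna1e, the pore of R-type calcium channels, stood at 761, 943 and 529.6 against 1688 and 1781, with N3 at 304, and had the largest difference of the 10, -1.26 ± 0.24. Cacna2d1, the auxiliary subunit that gabapentin binds, stood at 1309, 1461 and 1607 against 2622 and 2568, with N3 at 651. In all 3 genes N1 and N2 were the 2 highest libraries and N3 the lowest. Homer1, a scaffold that links metabotropic glutamate receptors to internal calcium stores, stood at 979, 822 and 822 against 1492 and 1588, and its short activity-induced isoform is not told apart from the long ones in these gene counts. Grm5, the metabotropic receptor that Homer proteins tether, stood at 768, 822 and 591 against 1364 and 1491, with N3 at 194. The differences of Pcdh17, a protocadherin, Cadm2, a synaptic adhesion protein, Lifr, a cytokine receptor, and Esyt2, a tether between endoplasmic reticulum and plasma membrane, were -0.84, -0.62, -0.83 and -0.58. The remaining gene of the 10 is listed under the date-like symbol 6-Mar (-0.83). With N3 in, the 10 differences ran from -0.42 (Cacna1e) to 0.08 (Lifr), and none of the 10 passed with or without N3.

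Immediate early genes, the record of recent neuronal activity, were examined as a list. Of 33 tested members, 20 were higher in performing rats with all libraries, with a median difference of 0.10, and 1 member (Npas4) lay above and 1 (Bdnf) below the nonperforming libraries without overlap (beside 2.94% and 1.87% of all genes). Over all genes tested 6677 of 13496 were higher. Without N3 25 of 33 were higher with a median of 0.27. Above N1 and N2 without overlap lay 12 members (36.4% of members, beside 15.6% of all genes). Below them lay 4 (12.1%, beside 15.8% of all genes). P1 was above N1 in 19 of 33 members, and both P2 and P3 were above N2 in 18, beside 51.1% and 30% of all genes. The list's median was 0.31 without both P2 and N3, and 0.11 and 0.06 with all libraries after TMM rescaling and quantile normalization.

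Arc, whose protein moves glutamate receptors off the synapse, had the largest difference without N3 among the members named here. Its normalized counts were 6855, 6477 and 5275 in P1, P2 and P3, 2576 and 1308 in N1 and N2, and 7124 in N3. N3 alone of the nonperforming libraries was at the performing level, so the group means were 6203 ± 825 and 3670 ± 3058 (SD, n = 3). The difference of Arc was 1.09 ± 0.52 with all libraries (adjusted p = 0.997) and 1.75 ± 0.39 without N3 (adjusted p = 0.437). Fos, the founding member of the group and part of the AP-1 factor, stood at 474, 583 and 492 against 319.5 and 235 in N1 and N2, with N3 inside the performing range at 521. Npas4, a neuronal factor that depends on calcium entry, stood at 335, 422 and 300.4 against 204, 193 and 256, with no overlap even with N3 in, and a difference of 0.69 ± 0.54. The fit takes the spread from the aged libraries as well, and the SE of Npas4 exceeded those of Sik1 and Nr4a1 (0.32 and 0.29). Nr4a1, an orphan nuclear receptor, stood at 2357, 2740.5 and 1979.6 against 1489.8 and 1125 in N1 and N2 and 2317 in N3. Dusp1, the phosphatase that ends MAP kinase signals, stood at 1327, 1167 and 1419 against 886 and 558 and 1323 in N3. For Nr4a1 and Dusp1 the value of N3 lay inside the range of the performing libraries, and their differences were 0.85 ± 0.27 and 0.89 ± 0.35 without it.

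Not every member ran that way. Egr1, a zinc finger factor induced by synaptic input, stood at 5236, 5238 and 6899.8 in the performing libraries and at 5299, 4269 and 11246 in the nonperforming ones. The groups overlapped, N3 was the highest, and the difference was -0.14 ± 0.36 with N3 and 0.27 ± 0.29 without. Bdnf, the growth factor of activity-dependent plasticity, stood at 495, 329 and 488 against 588, 661 and 607, with all performing values below all nonperforming ones and a difference of -0.52 ± 0.27. Homer1, given above, and the activin subunit gene Inhba and the factor Egr3 made up the other members below N1 and N2 without overlap. The members above them were Fos, Arc, Npas4, Nr4a1, Nr4a2, Sik1, Dusp1, Dusp5, Junb, Btg2, Gadd45b and Gadd45g.

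**Figure D2:**
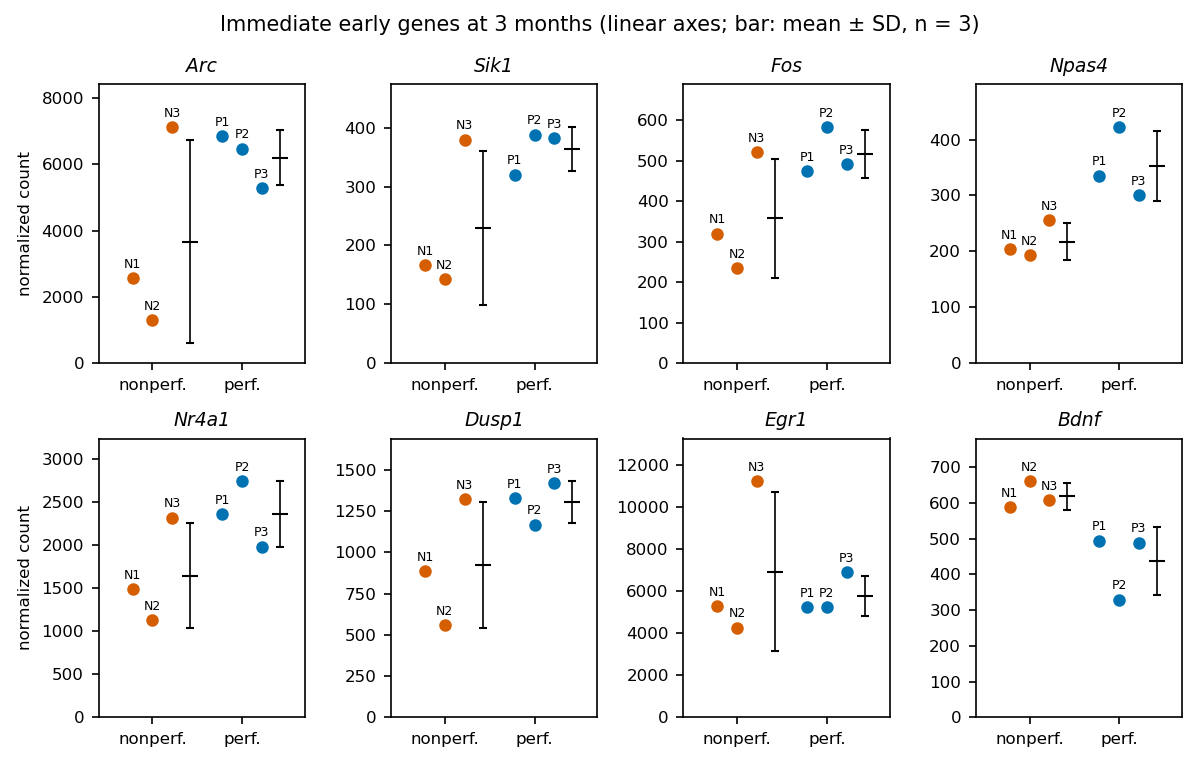
Normalized counts (y axis, linear from 0) of 8 immediate early genes in each of the 6 libraries of 3 months; points are libraries, bars the mean ± SD of 3 libraries. N3 lies within or above the range of the performing libraries for Arc, Sik1, Fos, Nr4a1, Dusp1 and Egr1, above N1 and N2 but below the performing libraries for Npas4, and between N1 and N2 for Bdnf, which is lower in performing libraries.

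The promoters of these genes are shown because CREB, through the cAMP response element, is a known route to their induction. Promoter windows were taken from RefSeq (rat build GRCr8, 250 bases before to 50 after the start), which held 24 of the 33 tested members. Both strands were searched for the full element TGACGTCA and for its core TGACG, which reads CGTCA on the other strand and which the full element contains in both directions. The full element was in 3 of the 24 members (12.5%) and in 612 of all 33469 promoters (1.83%). The core was in 15 of 24 (62.5%) and in 7097 of all promoters (21.2%). Members are counted by gene, if any window holds the motif, and all promoters by window, so the shares are of unlike units. Bdnf, with several windows and a core in 1 of them, counts as holding a core. Of the 10 members with a promoter that lay above N1 and N2 without overlap, 2 held the full element and 8 a core. Those 2, Dusp1 and Btg2, and Nr4a1, which has the largest number of cores, are printed with the 250 bases before the start on the coding strand, 5′ to 3′, the element and its cores in capitals. The windows are chr10:17184603-17184852 (+ strand) for Dusp1, chr13:48087691-48087940 (- strand) for Btg2 and chr7:134259888-134260137 (+ strand) for Nr4a1.
Dusp1: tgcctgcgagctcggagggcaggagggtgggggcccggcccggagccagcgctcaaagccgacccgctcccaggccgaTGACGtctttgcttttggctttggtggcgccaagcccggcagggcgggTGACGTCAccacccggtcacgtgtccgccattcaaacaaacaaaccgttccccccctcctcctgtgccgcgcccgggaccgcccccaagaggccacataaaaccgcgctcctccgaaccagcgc
Btg2: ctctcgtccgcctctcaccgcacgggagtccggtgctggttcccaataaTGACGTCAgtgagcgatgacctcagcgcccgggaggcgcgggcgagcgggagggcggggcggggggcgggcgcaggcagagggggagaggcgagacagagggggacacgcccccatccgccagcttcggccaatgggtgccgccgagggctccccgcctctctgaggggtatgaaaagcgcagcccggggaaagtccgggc
Nr4a1: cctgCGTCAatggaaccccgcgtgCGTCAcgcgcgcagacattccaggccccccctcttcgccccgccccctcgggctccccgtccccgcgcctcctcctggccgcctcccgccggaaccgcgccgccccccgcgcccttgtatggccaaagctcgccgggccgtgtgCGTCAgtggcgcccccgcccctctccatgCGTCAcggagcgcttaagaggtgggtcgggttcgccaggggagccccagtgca
A match describes letters in this window only, and whether a factor binds there was not measured. Nr4a1 holds 4 cores, all in the CGTCA form, and Npas4, which separated the groups in every library, holds none in its window.

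Most tested genes of glutamate receptors, GABA signalling, vesicle release and potassium channels had lower values in performing rats once N3 was left out. None of them passed with equal weights. With library quality weights 3 glutamate receptor genes, 2 of GABA signalling, 1 of vesicle release and 2 potassium channel genes passed, beside 144 of all 13496 genes. Of 25 tested glutamate receptor genes and their partners, 18 were lower with all libraries (median -0.04) and 21 without N3 (median -0.25), and 12 then lay below N1 and N2 without overlap (48%, beside 15.8% of all genes). Grin2a, the GluN2A subunit of mature NMDA receptors, stood at 526, 475 and 244 in P1, P2 and P3, 1059 and 1082 in N1 and N2, and 69.9 in N3. N3 was the lowest of all and turned a difference of -1.44 ± 0.33 into -0.13 ± 0.83. Grin2b, given above, was the 1 member without overlap when N3 was kept. Grin1, the obligatory NMDA subunit, was at 11217, 9344 and 12748 against 11943, 11818 and 14387, within the spread of the libraries. Among 30 potassium channel genes, which set how readily neurons fire, 19 were lower with all libraries (median -0.11) and 29 without N3 (median -0.34), and 16 then lay below N1 and N2 without overlap (beside 15.8% of all genes). Kcnma1, the large-conductance calcium-activated channel, stood at 1050.4, 1006 and 892 against 1569.7 and 1736 in N1 and N2 and 664 in N3, and N3 was the lowest library in 20 of the 30 channels (beside 34.9% of all genes). P1 was below N1 in 23 of the 30 channels, and P2 and P3 were both below N2 in 23, beside 48.8% and 28.4% of all genes. Inhibitory transmission genes went from a median of 0.04 with N3 to -0.28 without it over 20 members. Gabra2, an alpha subunit of the GABA-A receptor, stood at 1285, 1273 and 1272 against 1849.7 and 2104 and 549.9 in N3, while Gad2, which makes GABA, stood at 4003, 6463 and 6216 against 4393, 5020.4 and 3094. Genes of vesicle release had medians of -0.12 and -0.23 over 27 members, and the first became 0.0008 under quantile normalization. Bsn, the active zone scaffold Bassoon, lay below every nonperforming library, at 9548, 9683 and 11203 against 12424, 12234 and 11930.

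Cholinergic genes did not share a direction. Of 19 tested, 8 were higher and 11 lower with all libraries (median -0.07), and 6 were higher and 13 lower without N3 (median -0.09). Chrm1, the main muscarinic receptor of cortex, stood at 1063, 1632 and 1880.3 in the performing libraries and 2420.4, 2434 and 1375 in the nonperforming ones, with N3 inside the performing range, and differed by -0.44 ± 0.35 with N3 and -0.71 ± 0.35 without it. Chrna7, the homomeric nicotinic receptor, stood at 311, 266 and 266 against 477 and 509 in N1 and N2 and 102 in N3. The difference of Chrna7 was -0.06 ± 0.49 with N3 and -0.81 ± 0.21 without it. Chrna4 and Chrnb2 form the nicotinic receptor of highest nicotine affinity in brain. Chrna4 stood at 1219, 957 and 1225 against 1544, 1422 and 1658, with no overlap, and a difference of -0.45 ± 0.20. Chrnb2 stood at 871, 643 and 558 against 870, 1015 and 412, with overlap, and differed by -0.07 ± 0.30 with N3 and -0.47 ± 0.20 without it. Chrna5, the accessory subunit tied to attention in rodents, stood at 188, 111 and 54.1 against 299, 229 and 61.4. P3 and N3 were both low for Chrna5, so the groups overlapped. Ngfr, a neurotrophin receptor of cholinergic neurons, stood at 15.8, 21.3 and 30.6 against 9.62, 13.9 and 9.98, with a difference of 0.92 ± 0.37. Among 22 monoamine receptor genes the median was 0.01 with and without N3, and -0.23 with library quality weights. Without N3, 7 of the 22 lay below N1 and N2 without overlap (31.8%, beside 15.8% of all genes). Above them lay 2 (9.09%, beside 15.6% of all genes). Drd1 and Drd2, the main dopamine receptors, stood at 158, 93.4 and 481 and 85.7, 74.5 and 301 in P1, P2 and P3 against 204, 182 and 143 and 106, 109 and 91.4 in N1, N2 and N3. P3 alone was high for both, and the groups overlapped.

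Myelin genes were higher in performing rats in all 20 tested members, with a median of 0.25 with all libraries and 0.51 without N3. Of the 20, 17 lay above N1 and N2 without overlap (beside 15.6% of all genes), and 3 (Sox10, Myrf and Fa2h) above every nonperforming library (beside 2.94%). Mbp, which compacts the myelin sheath, stood at 137610, 136320 and 175010 in P1, P2 and P3, 71551 and 67201 in N1 and N2, and 260900 in N3. The difference of Mbp was 0.46 ± 0.50 with all libraries (-0.033 under quantile normalization) and 1.10 ± 0.38 without N3. Sox10, the factor that specifies the oligodendrocyte lineage, stood at 1759, 1884 and 1546 against 1305, 1161 and 1251, and Myrf, which drives myelination, at 2513, 2429 and 2358 against 1877, 1705 and 1988. For both the performing libraries were all above the nonperforming ones, with differences of 0.48 ± 0.27 and 0.39 ± 0.29. P1 was above N1 in 19 of the 20 genes, and P2 and P3 both above N2 in 18, beside 51.1% and 30% of all genes. N3 was the highest library in 13 of the 20, beside 36.2% of all genes. None of the 20 passed in any of these fits, and at 22 months the median of the list was -0.03. Precursor markers were less uniform, with 8 of 11 higher with all libraries (median 0.03) and 7 without N3 (median 0.25), when 5 lay above N1 and N2 without overlap (beside 15.6% of all genes). Gpr17, a receptor of cells about to differentiate, stood at 338, 295 and 216 against 500.4 and 515 in N1 and N2 and 108 in N3.

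The medians of cytosolic ribosomal protein genes and of nuclear genes of the respiratory chain changed sign with N3, and that of the mitochondrially encoded genes did not. Of 31 tested genes of cytosolic ribosomal proteins 25 were lower in performing rats with all libraries (median -0.07, and 0.07 under quantile normalization). Without N3 all 31 were higher and without overlap (median 0.43), beside 15.6% of all genes. N3 held the highest value in 30 of the 31, beside 36.2% of all genes. Rpl27, of the large subunit, stood at 2392, 2832 and 2699 in the performing libraries, 1840.1 and 2012 in N1 and N2, and 5303 in N3. Ribosomal protein genes have near-identical pseudogene copies, among which reads can be split. Of 37 nuclear genes of the respiratory chain 31 were lower with all libraries (median -0.15), beside 50.5% of all genes. Without N3 36 were higher (median 0.19), beside 50.6% of all genes. Then 17 lay above N1 and N2 without overlap (45.9%, beside 15.6% of all genes) and 1 below (2.70%, beside 15.8%). N3 was highest in 35 of the 37, beside 36.2% of all genes. Cox6c, of cytochrome c oxidase, stood at 7698, 7669 and 7502 against 5941 and 6093 in N1 and N2 and 14416 in N3. The 13 mitochondrially encoded genes were all higher in performing rats (median 0.47, and 0.13 under quantile normalization), and 11 were higher without N3 (median 0.14). ND4, a subunit of complex I, stood at 398240, 468020 and 403640 against 359880 and 390440 in N1 and N2 and 139140 in N3, the lowest. N3 was the lowest of the 6 libraries in 10 of these 13 genes, beside 34.9% of all genes.

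**Figure D3:**
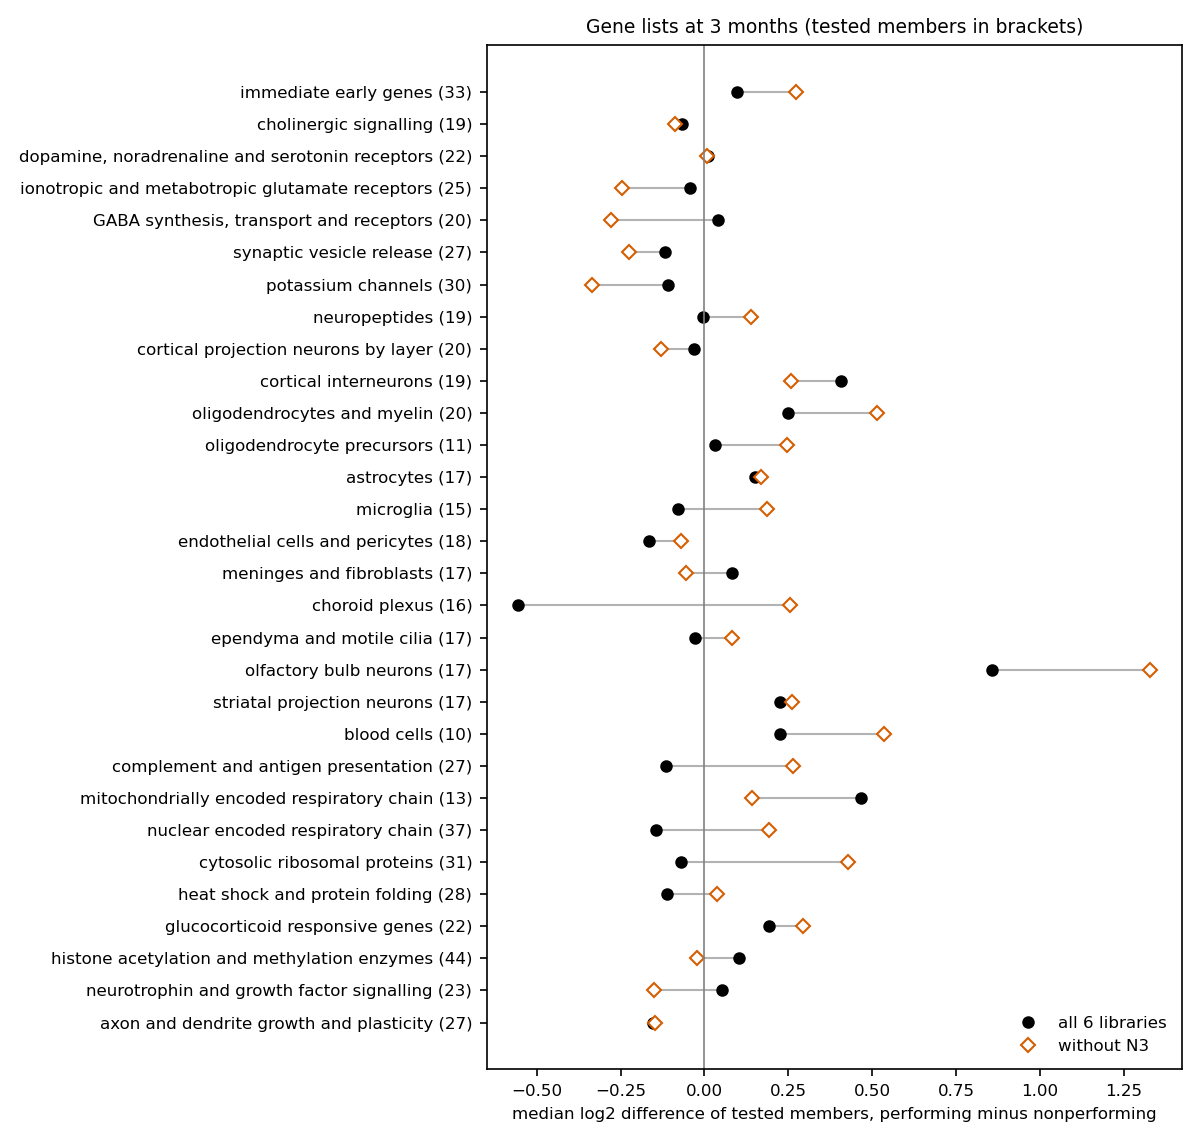
Median log2 difference (x axis, performing minus nonperforming) of the tested members of 30 gene lists (y axis), with all 6 libraries of 3 months (filled circles) and without N3 (open diamonds); the number of tested members is in brackets. Leaving out N3 carries choroid plexus from -0.55 to 0.25 and cytosolic ribosomal proteins from -0.07 to 0.43, and myelin genes are above 0 in both.

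Glucocorticoid responsive genes, which respond to the stress hormone corticosterone, were higher in 17 of 22 members with and without N3 (medians 0.19 and 0.29). Pdk4, a kinase that restrains pyruvate oxidation, stood at 102, 153 and 89.7 in P1, P2 and P3 and 65.4, 66.4 and 50.7 in N1, N2 and N3, with no overlap and a difference of 0.88 ± 0.34. Ddit4, an inhibitor of the growth kinase mTORC1, stood at 1549, 1839 and 1658 against 998 and 997 in N1 and N2 and 1733 in N3. Zbtb16, a hormone-induced repressor, ran the other way at 407, 367 and 296 against 624, 611 and 269, so the members did not move as 1 block. The list's P2 values were the highest of 6 in 9 of 22 members.

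Markers of several other cell types were high in single libraries. All 17 tested bulb markers were higher in performing rats (median 0.86, 1.33 without N3 and 0.46 without P2 and N3), and P2 was the highest library in 15 of them. P1 was above N1 in 10 of the 17. Of the 17 striatal markers 14 were higher (median 0.23, 0.26 without N3 and -0.09 with library quality weights), with P3 the highest library in 14. For these markers P1 was above N1 in 9 of the 17, beside 51.1% of all genes. Interneuron markers had a median of 0.41 over 19 members with all libraries, 0.26 without N3 and -0.07 with library quality weights, and N3 was the lowest library in 11 of them. Dlx1 and Dlx2, which bulb interneurons also express, were among the members without overlap. Sst and Vip, which define interneuron classes of the cortex, stood at 3134, 1477 and 3724 and 1280, 723 and 1605 against 2504, 3264 and 4812 and 1187, 1438 and 2605, with overlap in both. Pvalb, of fast-spiking interneurons, stood at 2226, 1244 and 3075 against 1662, 1491 and 5717. Projection neuron markers had a median of -0.03 over 20 members (0.01 under quantile normalization, and -0.13 without N3), and Cux2 of the upper layers stood at 2732, 2781 and 1631 against 2797, 2788 and 1442. Gfap, the filament of astrocytes, stood at 14598, 22286 and 13941 against 8745, 10900 and 24964, and Aif1, of microglia, at 619.8, 711 and 968 against 569, 554 and 2036. N3 was the highest library for Gfap and Aif1, and their differences were 0.31 ± 0.49 and -0.20 ± 0.53 with it, and 0.76 ± 0.46 and 0.42 ± 0.44 without it. The vessel marker Cldn5, of the tight junctions of endothelium, was high in P3 and N3, at 1871, 1908 and 4741 against 2145, 2606 and 8624. The hemoglobin gene Hbb, a sign of blood left in the tissue, was high in the same 2 libraries, at 1117, 897 and 3841 against 584, 500.3 and 7909. Meningeal collagen Col3a1 was highest in P2, at 126, 872 and 257 against 443, 227 and 237. What these carried tissues contribute to the differences of single genes was not tested.

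**Figure D4:**
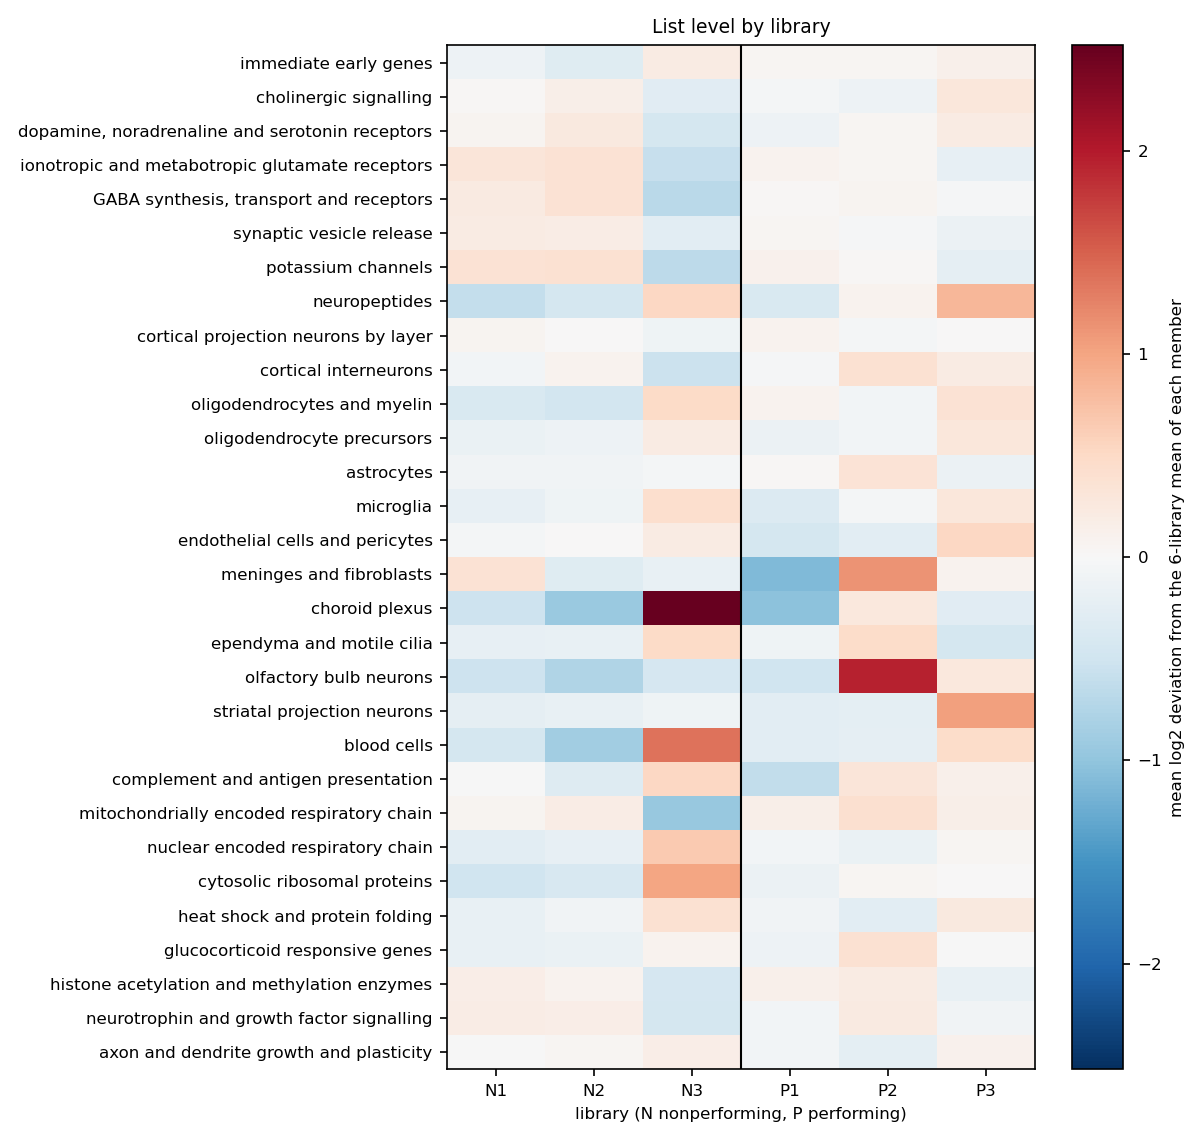
Level of each of 30 gene lists (y axis) in each library of 3 months (x axis), as the mean over tested members of the log2 value minus the member's mean over the 6 libraries (color scale, red higher and blue lower). Choroid plexus markers stand at 2.52 in N3, bulb markers at 1.95 in P2 and striatal markers at 1.04 in P3, and myelin genes are below 0 in N1, N2 and P2.

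The task effect at 3 months was then set against the task effect at 22 months, which the 2 ages of the design allow. With limma 0 of 13496 genes passed the test of the difference between ages (0%, smallest adjusted p = 0.9998), and at an unadjusted p under 0.05 there were 139. The edgeR and DESeq2 tests of that difference also gave 0 genes. Pim3, a kinase that promotes survival, had the smallest p. It stood at 744, 795 and 784 in performing and 629, 521 and 562 in nonperforming rats at 3 months, and at 813, 796 and 800.3 in performing and 799, 901 and 1255 in nonperforming rats at 22 months. Performing values were above nonperforming ones at 3 months, and at 22 months they overlapped. Dusp1 stood at 1106, 1433 and 892 in performing and 2159, 3399 and 1309 in nonperforming rats at 22 months. Its performing libraries were mostly lower there. At 3 months they were above N1 and N2, and N3 at 1323 lay within their range. Zfp36, which speeds the decay of messenger RNAs, stood at 167, 188 and 161 against 147, 145 and 121 at 3 months and 243, 228 and 191 against 338, 287 and 261 at 22 months. The groups of Zfp36 did not overlap at either age, and their order was opposite. Gpx3, a secreted glutathione peroxidase, stood at 197, 299 and 510.5 against 422, 583 and 549 at 3 months and at 692, 263 and 392 against 199.7, 277 and 178 at 22 months. Adamts1, a matrix protease, stood at 109, 144 and 204 against 129, 121 and 101, and at 191, 135 and 101 against 439.8, 217 and 247 at 22 months. None of these 5 interactions passed (adjusted p = 0.9998 each). Immediate early genes had a median of 0.10 at 3 months and -0.26 at 22 months, and the difference of those medians was not tested.

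The 22-month libraries also give the direction of the young genes. These libraries entered the choice of those genes through the estimate of spread and through the filter over all 12 libraries. Of the 163 genes with an unadjusted p under 0.05 at 3 months, 141 had the same sign of the task difference at 22 months (86.5%, beside 66.6% of all 13496 genes). A gene that reaches 10 only in the group where it is high had to differ. The count was therefore repeated, after the data were seen, over genes with at least 10 in 3 libraries of each task group, both ages together. It gave 122 of 135 (90.4%, beside 66.6% of 13040 genes), and the 22-month values entered that filter too. Ms4a15 and S100a5 are left out by that rule. The other 8 named genes higher at 3 months were higher at 22 months, with a median of 0.38, and the 10 named lower genes were lower, with a median of -0.29. Crym had -0.66 at 22 months, Vash2 0.85, Grin2b -0.19 and Clpb -0.17. Arc (-0.22) did not keep its sign, and Sik1 was at 0.01. The bulb markers had medians of 0.86 at 3 months, where their sum was raised in P2 and P3 and not in P1, and of 2.10 at 22 months, and their part in the shared direction was not tested.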

How the data were processed

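RNA of the medial prefrontal cortex of Wistar rats was purified on RNeasy columns, and 1000 ng per library entered a TruSeq stranded mRNA kit, per the labels. The values are the deposited normalized counts of the authors, a signal equal to reads divided by a size factor of the library. Per the submitters' processing notes, the tools were DESeq2, HTSeq, TopHat2, Bowtie2 and Trimmomatic on the rat build Rnor_6.0 (tool versions not given in the sources used here). Dividing by the smallest step of each library gave whole reads for 100% of values within a tolerance of 0.01, and these recovered reads (22632924 to 42205582 in the young libraries) entered edgeR 4.0.16 and DESeq2 1.42.0 only as alternatives.

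All 12 libraries entered 1 limma fit (limma 3.58.1, R 4.3.3) of 4 group means on log2(normalized count + 1), with trend, 8 residual and 3.32 prior degrees of freedom, for genes with at least 10 in at least 3 libraries. Tests were two-sided, with Benjamini-Hochberg adjustment over all 13496 genes and an adjusted p under 0.05 as threshold. The fit was checked on simulated data. Groups come from the labels. The members, the 30 lists (726 genes, 653 in the table and 634 tested, 17 of them under another symbol) and the tests were chosen with earlier results of these data known. A list is described by its counts and median, with no test. Genes were named by rule: the 10 smallest p in each direction at a mean of at least 50, with all libraries and without N3, up to 3 of each list by p in either fit, defining markers, and the 5 smallest p of the interaction. Fos, Arc, Egr1, Npas4, Bdnf, Chrm1, Chrna7, Chrnb2, Drd1, Drd2, Ttr, Cdhr1, Gfap, Mbp and Aif1 were always available. Some genes the rule selects are not reported here. The promoters printed, and members listed without values, were chosen after their values were seen. Alternatives were pseudocounts of 0.5 and 5, no filter or a mean of at least 50, TMM, quantile normalization, library quality weights, the title prefix as covariate, only the young libraries, and each library left out. Promoters come from RefSeq, and gene positions are not given because that build (GRCr8) is not the one the reads were placed on. Some symbols in the table have a date-like form, and 2 symbols with more than 1 identifier were kept apart.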

Additional observations from a re-analysis of the deposited data

How the results depend on the processing

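The count of passing genes at 3 months was 0 under each alternative except library quality weights, which passed 144. Of these, 137 had an unadjusted p under 0.05 with the same sign without N3, beside 1327 of all 13496 genes with such a p. The weights gave N3 only 0.0615, so this fit nearly left N3 out and the 137 are no separate support. With all libraries 20 of the 144 had groups that did not overlap, beside 2.94% of all genes with performing higher and 1.87% with performing lower. The fit of those weights stopped before its convergence tolerance, and the cause of the higher count was not tested. The count for the difference between ages was 0 under every alternative run, and both counts were 0 without each of the 12 libraries in turn. Of the 92 named genes, 37 changed sign under some alternative, and none passed with equal weights. With library quality weights 25 passed, 23 with the same sign as with equal weights and 2 (Cadm2 and Lifr, adjusted p = 0.0417 and 0.0434 by limma) with the opposite one. Of the 30 list medians, 7 moved by more than 1 SD between libraries. No paired analysis was possible because, although the title prefix VP holds 1 library of each task group, no label pairs the 2 performing with the 2 nonperforming libraries of 3 months under U. The fit with the prefix as covariate passed 0 genes at 3 months (limma, 148 at an unadjusted p under 0.05). With library quality weights the log2 differences of opposite sign were Aif1 0.23, Ttr 1.66, Egr1 0.24, Drd1 -0.28, Drd2 -0.23, Adamts1 -0.0078, Atp5e 0.40, Cadm2 -0.59, Col3a1 -0.40, Cox6c 0.33, Cux2 -0.077, Esyt2 -0.52, Gad2 -0.072, Lifr -0.76, Pvalb 0.38, Rnd2 0.40, Rpl21 0.32, Rpl27 0.34 and Rps24 0.31. With quantile normalization the log2 differences of opposite sign were Mbp -0.033, Egr1 0.0013, Drd1 -0.0034, Atp5e 0.0012, Cadm2 -0.023, Cox6c 0.077, Esyt2 -0.013, Lifr -0.0051, Rnd2 0.11, Rpl21 0.088, Rpl27 0.068 and Rps24 0.033. With DESeq2 the log2 differences of opposite sign were Cadm2 -0.22, Esyt2 -0.18, Hbb -0.62 and Lifr -0.34. With edgeR the log2 differences of opposite sign were Cadm2 -0.20, Esyt2 -0.17, Hbb -0.62 and Lifr -0.32. Without P2 and N3, an alternative chosen after seeing the data, the log2 differences of opposite sign were Aif1 0.46, Ttr 1.92, Egr1 0.34, Atp5e 0.48, Cadm2 -0.63, Cldn5 0.33, Col3a1 -0.81, Cox6c 0.34, Cux2 -0.40, Esyt2 -0.58, Grin1 0.0094, Lifr -0.94, Pvalb 0.73, Rnd2 0.47, Rpl21 0.40, Rpl27 0.40, Rps24 0.47, Sst 0.26 and Vip 0.13. Leaving out 1 library at a time changed the sign of these log2 differences, with lowest and highest values of Chrna7 -0.81 to 0.34, Aif1 -0.52 to 0.42, Ttr -4.51 to 1.53, Egr1 -0.43 to 0.27, Chrnb2 -0.47 to 0.18, Drd1 -0.52 to 0.66, Drd2 -0.35 to 0.65, 6-Mar -0.83 to 0.28, Atp5e -0.48 to 0.47, Cacna1e -1.26 to 0.015, Cacna2d1 -0.84 to 0.17, Cadm2 -0.62 to 0.35, Cldn5 -0.95 to 0.12, Col3a1 -0.67 to 0.72, Cox6c -0.30 to 0.34, Cux2 -0.27 to 0.30, Esyt2 -0.58 to 0.36, Gabra2 -0.63 to 0.34, Gpr17 -0.87 to 0.25, Grin2a -1.44 to 0.53, Grm5 -0.99 to 0.48, Hbb -0.46 to 1.53, Homer1 -0.82 to 0.017, Lifr -0.83 to 0.56, Nalcn -0.60 to 0.21, Pcdh17 -0.84 to 0.065, Pvalb -0.59 to 0.38, Rnd2 -0.33 to 0.50, Rpl21 -0.34 to 0.41, Rpl27 -0.31 to 0.45, Rps24 -0.44 to 0.49 and Sst -0.66 to 0.0062. Depth limits Ms4a15 and S100a5, which are at 0 or a single read in the nonperforming libraries of 3 months.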

Other observations

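Several further lists are given by their values, with P1, P2 and P3 before N1, N2 and N3. No gene in them passed the test with equal weights. Neuropeptide genes had a median difference of -0.005 over 19 members with all libraries (0.007 after TMM rescaling) and 0.14 without N3. Cartpt, the precursor of an appetite-related peptide, stood at 19.7, 432 and 495 against 6.74, 4.29 and 149, and P2 and P3 were the highest. Trh, the precursor of thyrotropin-releasing hormone that bulb neurons also make, stood at 20.7, 582 and 113 against 8.66, 9.64 and 37.6, with P2 far above the rest. Gal, the galanin gene, stood at 17.7, 59.1 and 25.5 against 3.85, 5.36 and 27.6, and N3 lay between P3 and P2. Genes of axon and dendrite growth were lower in performing rats in 23 of 27 members (median -0.15, and -0.04 under quantile normalization) and in 17 of 27 without N3 (median -0.15). Gap43, a growth cone protein, stood at 11066, 9589.9 and 12335 against 11535, 12930 and 18728, with N3 the highest, and Mapt, the microtubule protein tau, at 18688, 16384 and 16143 against 18887, 19369 and 19383, with no overlap. Growth factor genes had a median of 0.05 over 23 members (-0.02 under quantile normalization) and -0.15 without N3. Igfbp5, which binds insulin-like growth factors, stood at 2239, 4796 and 2085 against 1752, 1759 and 1501, with P2 the highest and no overlap. Histone acetylation and methylation enzymes had a median of 0.10 over 44 members and -0.02 without N3. Kdm6b, a demethylase of histone H3 that stimuli induce, stood at 758, 861 and 477 against 584, 449 and 365, and P3 overlapped with N1.

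Heat shock and protein folding genes were lower in 22 of 28 members with all libraries (median -0.11, and 0.01 under quantile normalization) and higher in 19 without N3 (median 0.04). Cryab, a small chaperone abundant in oligodendrocytes, stood at 1605, 1496 and 1756 against 902, 934 and 1828, with N3 the highest. Complement and antigen presentation genes had a median of -0.12 over 27 members and 0.26 without N3. B2m, the light chain of MHC class I, stood at 9317, 13961 and 12002 against 8831, 8887 and 14011, with P2 and N3 the highest. The medians of the remaining cell type lists, with all libraries and then without N3, were 0.15 and 0.17 for 17 astrocyte markers, -0.08 and 0.19 for 15 microglia markers, and -0.16 and -0.07 for 18 vessel markers. They were 0.08 and -0.05 for 17 meningeal markers, -0.03 and 0.08 for 17 ependymal markers, and 0.23 and 0.54 for 10 blood cell genes. Enkur, a protein of motile cilia, stood at 409, 322 and 348 against 455, 444 and 548, with no overlap and a difference of -0.42 ± 0.16.

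Library quality weights, the alternative in which 144 genes passed, gave Sik1, Grin2b, Sult1d1, Cacna1e and Arc an adjusted p of 0.0281 each and Ap1s3 one of 0.0301 (limma). The weights were 2.70, 0.833 and 0.311 for P1, P2 and P3 and 1.93, 5.69 and 0.0615 for N1, N2 and N3, so the comparison rests mainly on P1, N1 and N2 among the young libraries. Of the 144 genes, 25 had an unadjusted p under 0.05 with equal weights, beside 163 of all 13496 genes.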
